A study of Mus musculus with 2 samples.

Results

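The mouse miRNA genes with late numbers, Mir5000 and above, were examined in small RNA libraries from the left cerebral cortex. Members were the genes whose GENCODE M21 name is Mir followed by a number of 5000 or more, with or without a suffix, apart from 1 not reported here. They came to 469 of the 2202 miRNA genes in the tables. The rule uses names alone, but it was set with earlier results of these data known. Their combined signal was small: 263 of the 469 had at least 1 count in either library, 21 reached 10 counts per 1000000 (CPM) in both, and all members together took 0.176% ± 0.00437 (SD, n = 2) of the counts on miRNA genes.

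The tissue was left cerebral cortex, from female 5xFAD/CAST adults of 8 to 10 months. 5xFAD is a transgenic model in which mutant human amyloid precursor protein and presenilin, driven in neurons by a Thy1 promoter, lead to amyloid plaques. CAST is a wild-derived mouse background. The 2 libraries, biological replicates 1 and 2 of 1 group, held RNA fragments under 30 nt. No mice without the transgenes were analysed, so nothing below is a comparison with healthy cortex. The labels give each library its own tissue sample but 1 donor entry for both, and do not say whether separate animals were used. Every p-value therefore speaks only of how these 2 libraries differ, and such a difference may be technical.

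MicroRNAs are numbered in the order in which they were registered, so high numbers belong to hairpins found late, mostly by deep sequencing. A canonical hairpin is cut from its transcript by Drosha and then by Dicer, and one arm, 5p or 3p, is loaded into Argonaute, where bases 2 to 8 of the arm (the seed) select target mRNAs. In a mirtron the hairpin is a short intron, and splicing makes both of its ends in place of Drosha. In a tailed mirtron splicing makes only one end, and nucleases trim the rest of the intron.

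The mature arms of the most abundant members and of members at intron boundaries are shown first, since their letters carry the pattern described below. Sequences are from RefSeq (GRCm38.p6), 5′ to 3′, with the seed in capitals. RefSeq had an entry for 435 of the 469 members and a mature arm on the hairpin for 428. The first set holds the most abundant member, which lies between genes, and the 3 next most abundant members outside intron boundaries.
mmu-miR-7689-5p: cCGAGGCAgccuggcuuag
mmu-miR-7689-3p: uUAGAGCCagacugccuggguuu
mmu-miR-6540-3p: uCUGAAGCuugcuuaccucca
mmu-miR-8112: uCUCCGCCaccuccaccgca
mmu-miR-6236: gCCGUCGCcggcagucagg

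The second set holds the 2 detected members, of 15, whose hairpin fills a whole short intron. Introns start with GU and end with AG, and both arms of Mir6944 show this: the 5p arm begins with gu and the 3p arm ends with ag.
mmu-miR-7080-5p: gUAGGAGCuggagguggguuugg
mmu-miR-7080-3p: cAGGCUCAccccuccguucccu
mmu-miR-6944-5p: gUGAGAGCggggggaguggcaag
mmu-miR-6944-3p: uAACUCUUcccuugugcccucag

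The third set holds 3p arms from hairpins at the 3' end of an intron. Each arm shown runs up to the splice acceptor, which a pyrimidine-rich stretch commonly precedes. Pyrimidines made up 57.1% of miR-7044-3p, 73.9% of miR-7066-3p, 81.0% of miR-7052-3p and 69.6% of miR-7019-3p. All arms shown end in ag, while 128 of the 170 3p arms of such members did.
mmu-miR-7044-3p: aUGCAGCCccgacccucacag
mmu-miR-7066-3p: uCUACCCAuugccugccucccag
mmu-miR-7052-3p: gCUCUGCCcccuccuucccag
mmu-miR-7019-3p: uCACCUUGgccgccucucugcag

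The tables held 12978140 reads in replicate 1 and 15950006 in replicate 2, of which 4226300 and 5162369 fell on the strand of a miRNA gene (32.5% ± 0.141, SD, n = 2). CPM below are counts per 1000000 of those miRNA counts, and 3 counts, the limit that a count of 0 allows, equal 0.710 CPM in replicate 1 and 0.581 CPM in replicate 2. Such limits and the intervals below cover counting error only, since reads are not independent molecules. The labelled tissue was checked on marker miRNAs. Summed CPM in replicates 1 and 2 were 50833 and 31784 for neuronal markers, 33637 and 28698 for astrocytic and 7091 and 5329 for oligodendrocytic markers. Of the 6 neuronal markers, Mir132 gave most of the sum (40577 and 21189 CPM), while Mir124a-1, Mir124a-2 and Mir124a-3 lay between 0 and 3.68 CPM. The tables list 40.4% and 39.4% of reads as multimapping, outside every gene's count. Low values of genes with copies at several loci, such as Mir124a, therefore need not mean a low level. Muscle markers summed to 39.0 and 52.3 CPM, nearly all from Mir206 (38.6 and 52.3 CPM), with 3 of 5 at 0. Several lists differed between the libraries: blood markers summed to 36.2 and 861 CPM, endothelial to 7756 and 13122, epithelial to 406 and 156, and the Mir302 genes of embryonic stem cells to 423 and 0.194. The part of these differences in the results below was not tested. In such bulk tissue, fewer cells of a type and less RNA per cell cannot be told apart.

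Late-numbered genes had a count almost as often as early ones but at far lower levels. A count in either library was seen for 263 of 469 members (56.1%), for 331 of the 514 Mir genes numbered below 1000 (64.4%) and for 105 of the 179 numbered from 1000 to below 5000 (58.7%). Among genes with a count, the median of the mean CPM was 1.17 for members, 3.22 for numbers from 1000 to below 5000 and 114 for numbers below 1000. Detection, taken as 10 CPM or more in both libraries, was met by 21 members (4.48%), 29 genes numbered from 1000 to below 5000 (16.2%) and 239 below 1000 (46.5%), out of 309 detected miRNA genes in all. By rank, 2 members were among the 200 miRNA genes with the highest mean CPM and 16 among the first 300.

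**Figure D1:**
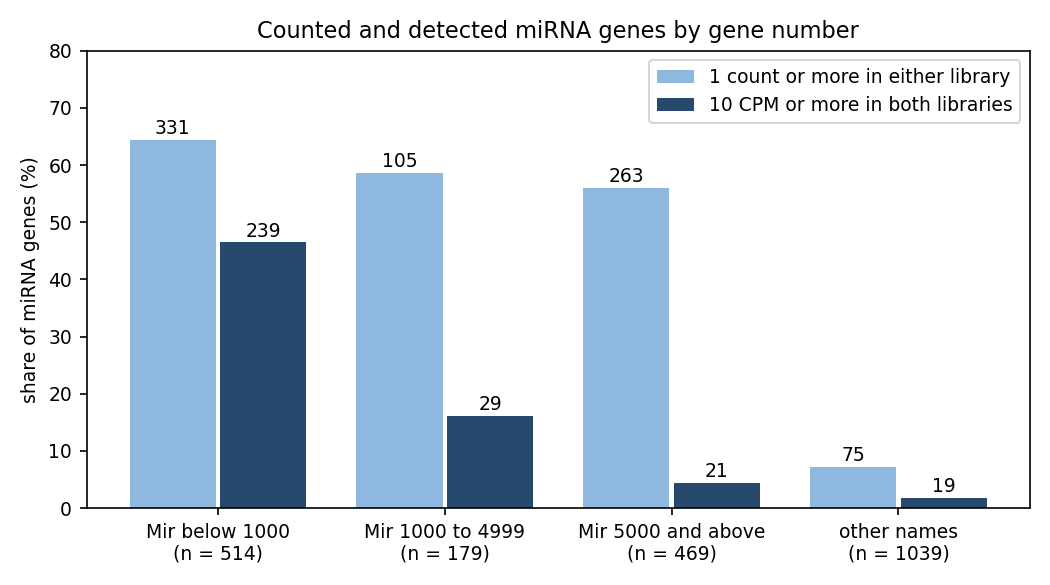
Share of miRNA genes with a count in either library and share at 10 CPM or more in both libraries (y axis, %), by the number in the gene name (x axis). The last pair of bars holds the 1039 genes with other names, of which 75 had a count and 19 reached 10 CPM in both libraries. Genes numbered 5000 and above had a count in 56.1% of cases, close to the 58.7% of those numbered from 1000 to below 5000, but reached 10 CPM in both libraries in 4.48%.

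Members took 7301 counts in replicate 1, a share of 0.173% (Wilson 95% interval 0.169% to 0.177%), and 9237 counts in replicate 2, a share of 0.179% (0.175% to 0.183%). The shares of the libraries were close and their intervals overlapped, but their difference was not tested. A single gene carried much of the sum: Mir7689 gave 27.8% of the member counts in replicate 1 and 36.2% in replicate 2. Without it, the share was 0.125% in replicate 1 and 0.114% in replicate 2, so the order of the libraries turned. The 20 members with the highest mean CPM held 71.9% and 72.5% of the member counts. At the other end, 119 members had 1 to 9 counts over both libraries, 119 had 10 to 99, 25 had 100 or more and 206 had none. A count in both libraries was seen for 193 members, in replicate 1 alone for 39 and in replicate 2 alone for 31, the highest of these 70 being 22 counts.

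Within the members, the share with a count varied widely along the gene number. Genes were grouped by steps of 100 in the number, a grouping chosen after the values were seen, and 2 runs of it are described here without a test. Of the 87 members numbered from 6300 to below 6500, 4 had a count (4.60%), with 10 counts in replicate 1 and 7 in replicate 2 over the whole run. Of the 197 members numbered from 6900 to below 7100, 158 had a count (80.2%), with 2959 and 3283 counts. The other 185 members lay between these, with 101 counted (54.6%).

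The runs also differed in where their hairpins lie, which the counts do not enter. In the run from 6300 to below 6500, 58 of 87 hairpins were intergenic and 1 had an end at an intron boundary. In the run from 6900 to below 7100, 192 of 197 were intronic, 1 was intergenic, and 188 (95.4%) had an end within 5 bases of an intron boundary on their own strand. The 3p arms ended in AG in 135 of 173 arms of the latter run and in 6 of 40 of the former, and the median share of pyrimidines was 72.0% against 47.7%.

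**Figure D2:**
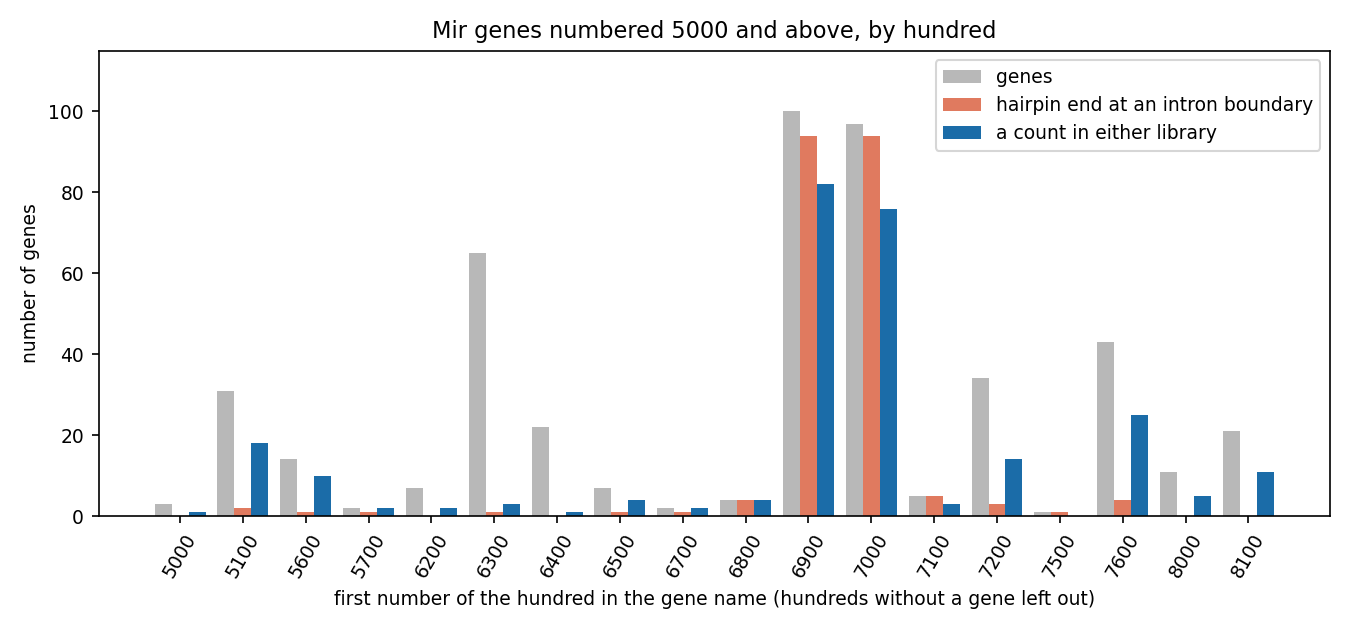
Number of member genes, of those with a hairpin end at an intron boundary and of those with a count in either library (y axis), for each step of 100 in the gene number (x axis, labelled with its first number). The steps from 6900 and 7000 are tall in all 3 bars, with 94 hairpins each at an intron boundary, while of the 65 genes from 6300 only 3 had a count.

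Many late-numbered hairpins abutted an intron boundary. Of the 469 members, 190 (40.5%) had only the 3' end of the hairpin at an intron boundary, 15 (3.20%) had both ends and 7 (1.49%) only the 5' end, 212 in all (45.2%). The same held for 5 of 514 genes numbered below 1000 (0.973%) and for 18 of 179 numbered from 1000 to below 5000 (10.1%). Most of the 212 members, 188, belong to the run from 6900 to below 7100. In the run from 6300 to below 6500 it was 1 of 87 members, and outside both runs 23 of 185. The 15 hairpins with both ends at boundaries, the arrangement of a mirtron, filled introns of 67 to 137 bases (median 83). Hairpins with only the 3' end at a boundary were preceded by 7 to 36205 bases of intron (189 members, median 512), and for 47 of them this 5' tail was under 100 bases.

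Members at an intron boundary had a count in a larger share of cases than the others, a description for which no test was made. Among those with the 3' end at the boundary, 158 of 190 (83.2%) had a count, against 9 of 15 with both ends, 5 of 7 with the 5' end and 91 of 257 (35.4%) with neither. Most of these counts were few, since 11 members with a 3' end at the boundary, 2 with both ends and 8 with neither were detected. The 3'-end members together held 33.6% and 30.1% of the member counts in replicates 1 and 2, those with both ends 10.6% and 8.96%, and those with neither 54.4% and 59.9%. The 2 runs above enter this contrast. In the run from 6900 to below 7100, 154 of 188 members at a boundary had a count. In the run from 6300 to below 6500, 4 of 86 members with neither end at a boundary did. Outside both runs, 83 of 162 members with neither end at a boundary had a count, among 101 of all 185 members.

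**Figure D3:**
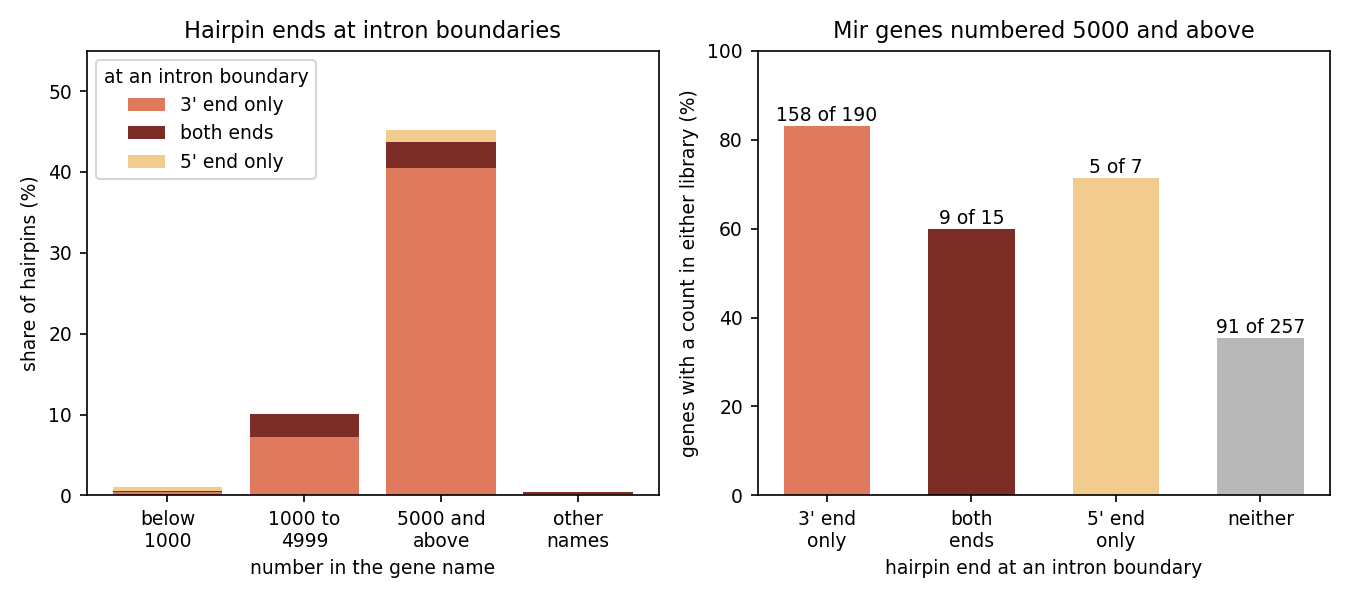
Left, share of hairpins with an end within 5 bases of an intron boundary (y axis, %) by the number in the gene name, stacked by which end. Genes with other names are the last bar. Of the 212 members with such an end, 188 are numbered from 6900 to below 7100. Right, share of members with a count in either library (y axis, %) by hairpin end: 158 of 190 with only the 3' end at a boundary, and 91 of 257 with neither.

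The letters of the mature arms followed the same division. The 3p arm ended in AG in 160 of 343 members' 3p arms (46.6%), against 24 of 353 (6.80%) below number 1000 and 23 of 129 (17.8%) from 1000 to below 5000. Of the 160 arms, 135 came from the run from 6900 to below 7100, which holds 173 of the 343. Within the members it was 128 of 170 arms (75.3%) for hairpins with the 3' end at a boundary, 8 of 11 with both ends and 22 of 156 (14.1%) with neither. At the other end, the 5p arm began with GU in 10 of 13 members with both ends at a boundary, 5 of 6 with the 5' end and 2 of 166 with only the 3' end. Median pyrimidine content of the 3p arm was 71.7% for 3'-end members and 50% with neither, and that of the 5p arm 33.3% and 45%. In members with a count, 123 of 215 3p arms ended in AG (57.2%), and in those without, 37 of 128 (28.9%). The median arm length was 22 nt in members and in genes numbered below 1000 alike, with a median GC content of 56.5% (5p) and 54.5% (3p) in members and 45.8% and 47.6% below 1000.

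By position, 306 members were intronic, in 297 host genes, and 206 of them had a count (67.3%), while 24 of 113 intergenic members did (21.2%). Intronic members held 51.6% and 46.2% of member counts in replicates 1 and 2, and intergenic members 35.3% and 43.8%, most of it from Mir7689. In the 5' UTR of a protein-coding gene lay 17 members, of which 16 had a count and 3 were detected. The 3' UTR held 15 members (10 with a count), coding sequence 9 (5 with a count) and exons of other genes 9 (2 with a count).

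Mir7689 (ENSMUSG00000098884.1, mm10 chr5:36301570-36301628, intergenic) was the most abundant member and ranked 118 among all miRNA genes. Replicate 1 held 2031 counts and replicate 2 held 3344, or 481 and 648 CPM (mean 564 ± 118, SD, n = 2). The level was higher in replicate 2 by 0.40 on the log2 scale, after scaling by trimmed mean of M-values (TMM). The ratio was 1.32-fold (95% interval 1.25 to 1.39), with an adjusted p of 1.30e-22 by an exact binomial test, adjusted after Benjamini and Hochberg over all genes tested. That test sets the difference against counting error alone. With an assumed biological coefficient of variation (BCV) of 0.1 in edgeR's exact test, the adjusted p was 0.142.

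Mir7080 (ENSMUSG00000098582.1, chr8:123130106-123130172) filled a whole intron of 67 bases in Cpne7, which encodes a copine, a calcium-dependent membrane-binding protein. Its level was 121.1 CPM in replicate 1 and 121.6 CPM in replicate 2 (512 and 628 counts, mean 121 ± 0.356), and the log2 difference of -0.03 did not pass the test (exact binomial test, adjusted p = 0.854). Mir6944 (ENSMUSG00000098341.1, chr13:55477681-55477776), the other detected member with both ends at the boundaries, filled an intron of 96 bases in Dbn1. Dbn1 encodes drebrin, an actin-binding protein of dendritic spines. The Mir6944 level was 46.8 CPM in replicate 1 and 28.9 CPM in replicate 2 (198 and 149 counts, mean 37.9 ± 12.7). It was higher in replicate 1, by a log2 difference of -0.73 (adjusted p = 8.15e-06, exact binomial test; 0.0234 with the assumed BCV).

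Hairpins at the 3' end of introns gave 11 of the 21 detected members. Mir7044 (ENSMUSG00000098583.1, chr6:118085192-118085263) lies in Rasgef1a, a Ras exchange factor gene, 633 bases into its intron. It had 333 and 239 counts in replicates 1 and 2, or 78.8 and 46.3 CPM (mean 62.5 ± 23.0), and was 1.74-fold higher in replicate 1 (exact binomial test, adjusted p = 1.80e-10; 0.00500 with the assumed BCV). Mir6769b (ENSMUSG00000098976.1, chr8:71631047-71631106) lies in Unc13a, whose protein primes synaptic vesicles for release. It stood at 36.2 and 27.5 CPM (153 and 142 counts, mean 31.9 ± 6.15), and its difference of -0.43 passed the exact binomial test (adjusted p = 0.0216) but not with DESeq2 size factors (0.0599) or the assumed BCV (0.239).

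Further such hairpins were fainter. Mir7066 (chr8:70102524-70102586) lies in Ncan, which encodes neurocan, a proteoglycan of the brain matrix, and had 16.6 CPM in replicate 1 and 16.1 CPM in replicate 2 (mean 16.3 ± 0.343). Mir7052 (chr7:44470347-44470411) in Josd2, a deubiquitinase gene, had 15.6 and 15.9 CPM (mean 15.8 ± 0.189). Mir6982 (chr18:60958073-60958140) in Camk2a, which encodes the calcium/calmodulin-dependent kinase abundant at excitatory synapses, had 18.9 and 11.6 CPM (80 and 60 counts, mean 15.3 ± 5.17). The libraries differed for Mir6982 (log2 -0.73, exact binomial test, adjusted p = 0.00599; 0.0721 with the assumed BCV) while Mir7066 (0.869) and Mir7052 (1) did not pass.

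Mir7069 (chr8:84867947-84868008) in Farsa, a tRNA synthetase subunit gene, had 11.6 CPM in replicate 1 and 16.3 CPM in replicate 2 (mean 13.9 ± 3.31, exact binomial test, adjusted p = 0.123), behind a 5' tail of 28 bases. Mir6954 in Mroh1 had 13.3 and 14.5 CPM (mean 13.9 ± 0.904). Mir6953 in Grina, 13 bases into its intron, had 57 counts in each library (13.5 and 11.0 CPM, mean 12.3 ± 1.73). Mir7019 (chr4:138316132-138316200), in Pink1, which encodes a mitochondrial kinase, had 14.7 and 16.3 CPM (mean 15.5 ± 1.13); its midpoint lies in the 5' UTR of one Pink1 transcript and its 3' end at the intron boundary of another. None of these 4 passed the exact binomial test.

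Of the 8 detected members away from intron boundaries, 4 lay in protein-coding genes. Mir6540 (ENSMUSG00000098300.1, chr16:42303362-42303469) lies in an intron of Gap43, which encodes a growth-cone protein. Its counts were 321 and 456 in replicates 1 and 2, or 76.0 and 88.3 CPM (mean 82.1 ± 8.75), a difference of 0.19 on the log2 scale that did not pass (exact binomial test, adjusted p = 0.119). Mir8114 (ENSMUSG00000099227.1, chr1:153899926-153900036) lies in the 5' UTR of Glul, the glutamine synthetase gene of astrocytes. It had 35.3 CPM in replicate 1 and 24.6 CPM in replicate 2 (149 and 127 counts, mean 29.9 ± 7.53), a log2 difference of -0.55 (exact binomial test, adjusted p = 0.00351; 0.117 with the assumed BCV). Mir8112 (ENSMUSG00000098623.1, chr6:71271671-71271801) lies in the 5' UTR of Krcc1 and was 1.59-fold higher in replicate 1. Its counts were 332 and 261, or 78.6 and 50.6 CPM (mean 64.6 ± 19.8), with an exact binomial adjusted p of 6.45e-08 and 0.0230 with the assumed BCV. Mir7666 in an intron of Fgf20, a growth factor gene, had 13.5 and 12.8 CPM (mean 13.1 ± 0.496).

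Others lay between genes or in non-coding exons. Mir6236 (ENSMUSG00000098973.1, chr9:110281287-110281409, intergenic) had 44.0 CPM in replicate 1 and 49.8 CPM in replicate 2 (186 and 257 counts, mean 46.9 ± 4.08, exact binomial test, adjusted p = 0.391). Mir5099 (ENSMUSG00000092998.1, chr12:36816205-36816278, intergenic) had 20.8 and 22.1 CPM (88 and 114 counts, mean 21.5 ± 0.892, exact binomial test, adjusted p = 0.882). Mir6516 (ENSMUSG00000104740.1, chr11:117077348-117077457) lies in an exon of the non-coding gene Snhg20 and overlaps Gm26083, annotated as a scaRNA, a class that guides modification of spliceosomal RNAs. It had 39.5 and 28.7 CPM (167 and 148 counts, mean 34.1 ± 7.67), a log2 difference of -0.49 (exact binomial test, adjusted p = 0.00555; 0.154 with the assumed BCV), and reads of the overlapping genes cannot be told apart in these counts.

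**Figure D4:**
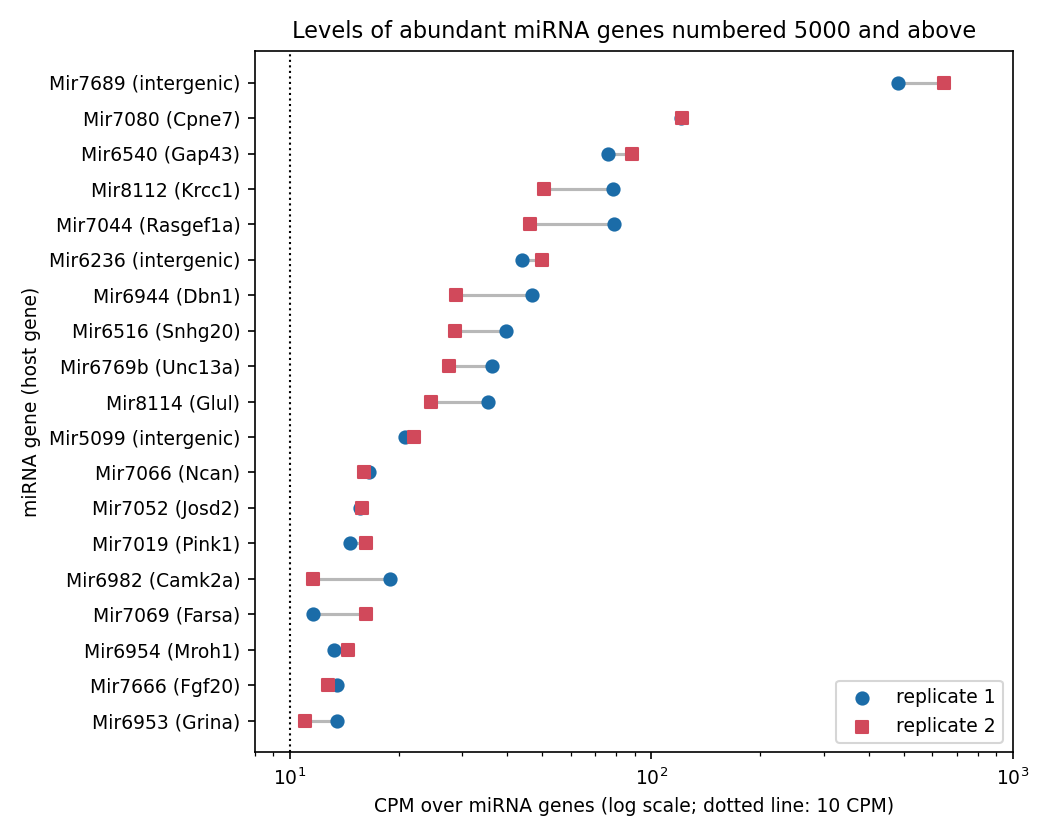
Level in CPM (log axis) of 19 of the 20 members with the highest mean, 1 point per library. Mir7689 stood at 481 and 648 CPM and Mir7080 at 121.1 and 121.6 CPM, and the other 17 shown lay below 100 CPM in both libraries.

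The last member to pass 10 CPM in both libraries, Mir5129 in an intron of Zeb2, had 11.1 and 13.0 CPM. Mir5121, with 13.3 CPM in replicate 1 and 9.88 CPM in replicate 2, fell just below the level in the second library. Mir5121 overlaps Snord33, annotated as a snoRNA, and reads of the overlapping genes cannot be told apart in these counts. At the edge of the number rule, Mir5046 and Mir5098 had no count, Mir5099 had 88 and 114 and Mir5100 had 13 and 5. Just outside it, Mir3970 had 5 and 4 counts, Mir3968 had 1 and 0, and Mir3969 and Mir3971 had none.

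Of the 144 members with at least 10 counts over both libraries, 48 (33.3%) differed between the libraries by the exact binomial test at an adjusted p under 0.05, where 58.8% of all 546 tested miRNA genes did. Of the 48, 21 were higher in replicate 2 and 27 in replicate 1. Of the 321 called among all 546 tested genes, 134 were higher in replicate 2 and 187 in replicate 1. The share called depends on the counts available: of members with 10 to 99 counts 37 of 119 were called (31.1%, all genes 30.5%), and of those with 100 or more 11 of 25 (44.0%, all genes 77.9%). With the assumed BCV of 0.1, 22 of the 144 members were called (all genes 28.8%). By the exact binomial test, 34 of the 144 members were called and also differed 2-fold or more (all genes 20.0%). The median log2 ratio of replicate 2 over replicate 1 was -0.02 in members and -0.07 in all genes tested, and the sign for members depends on the scaling: it was 0.05 with DESeq2 size factors, 0.01 with total counts and 0.02 with TMM factors from all miRNA genes.

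**Figure D5:**
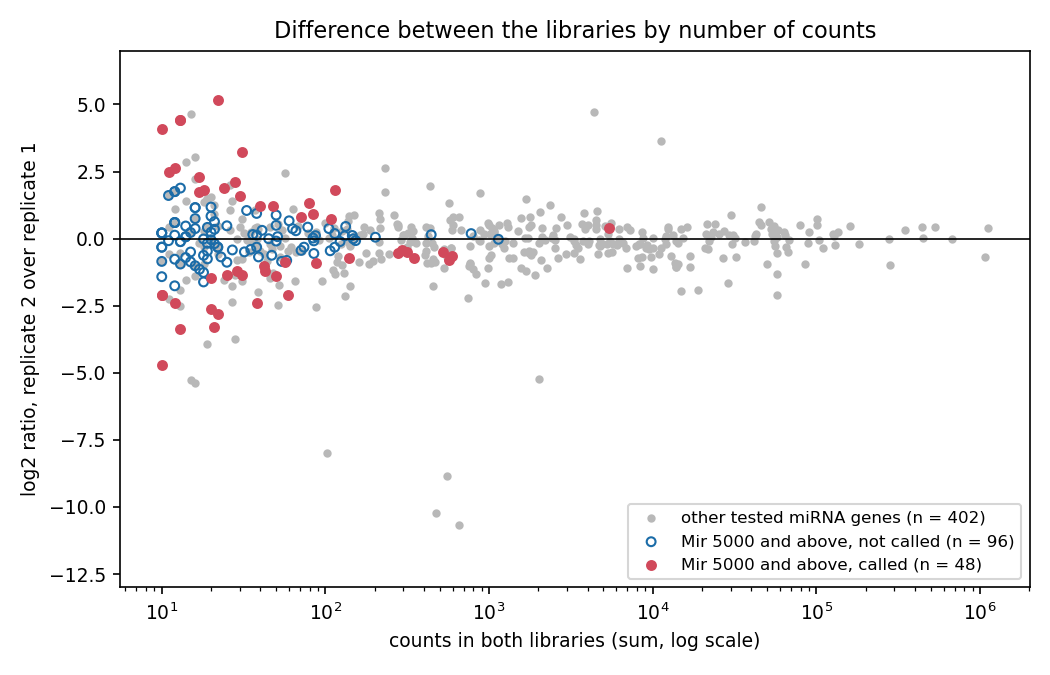
Log2 ratio of replicate 2 over replicate 1 (y axis) against the summed counts of both libraries (x axis, log scale) for the tested genes. Members, with a median of 25 counts against 231.5 for all genes, sit at the left, and 48 of 144 were called at an adjusted p under 0.05. Of all 546 tested genes 321 were called (58.8%), and calls among the other genes are not marked.

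The largest called ratios in members with 20 counts or more rested on few counts, each ratio here is that of the scaled counts with none added, and each p-value is a Benjamini-Hochberg adjusted one of the exact binomial test. Toward replicate 2, Mir7231 in Foxj2, a transcription factor gene, had 0 and 22 counts, at least 5.88-fold higher (floor of 3 counts in replicate 1, adjusted p = 7.85e-06). Mir6909 in Plpp2 had 2 and 29 counts, a ratio of 11.6 (95% interval 2.94 to 100, adjusted p = 1.30e-05). Mir6976 in Srf, a transcription factor gene, had 4 and 24 counts (a ratio of 4.81, adjusted p = 0.00217), and Mir7045 in Chd4, a chromatin remodeller gene, had 4 and 20 (a ratio of 4.01, adjusted p = 0.0127, 0.0517 with the assumed BCV). Mir5113, in the 3' UTR of Tnrc6b, a gene of the miRNA silencing complex, had more counts than these: 21 and 94, or 4.97 and 18.2 CPM, a ratio of 3.59 (interval 2.22 to 6.06, exact binomial test, adjusted p = 1.39e-08; 1.88e-05 with the assumed BCV).

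Toward replicate 1, Mir7032 in Hip1r, an endocytosis gene, had 19 and 2 counts, a ratio of 11.9 (95% interval 2.86 to 105, exact binomial test, adjusted p = 4.79e-05). Mir5126, intergenic, had 19 and 3 counts, a ratio of 7.90 (2.33 to 41.7, adjusted p = 0.000256), and Mir6933 in Pgs1 had 17 and 3, a ratio of 7.07 (2.05 to 37.7, adjusted p = 0.000845). Mir6958, which fills an intron of Dennd6b, had 31 and 7 counts, a ratio of 5.53 (exact binomial test, adjusted p = 1.06e-05). Mir7056 in Ptpn5, the gene of a neuronal tyrosine phosphatase, had 46 and 13 counts, a ratio of 4.42 (exact binomial test, adjusted p = 6.66e-07). Of these 5, 3 rested on 3 counts or fewer in replicate 2.

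Seeds were mostly held by single members. The 681 mature arms of members carried 614 distinct seeds, of which 53 were shared by members among themselves. Pairs in which a detected member shared its seed with another member are shown here because equal seeds would select the same target letters.
mmu-miR-7019-5p: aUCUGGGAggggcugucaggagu
mmu-miR-6907-5p: uUCUGGGAcacagggaggcucg
mmu-miR-5620-5p: aCGAGGCAggggcuuugacugug

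The partners were much rarer than the detected genes. Mir6907 in Rrp1 had 11 and 11 against 62 and 84 for Mir7019, and Mir5620 (chr7:7298891-7298946, intergenic) had 46 and 39 against 2031 and 3344 for Mir7689. The seed of Mir7689-5p, printed above, is that of Mir5620-5p, CGAGGCA.

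A seed in common with 2 or more Mir genes numbered below 5000 was found for 20 members, a set picked after the values were seen; 14 of them had no count. Of the 20, 13 belong to the run from 6300 to below 6500, where 83 of all 87 members had none, and these 13 had none either. Of the 7 outside that run, 6 had a count, among them Mir7016 with 24 and 39 counts (seed AGGGAGG of miR-149-3p) and Mir6958 with 31 and 7 (seed UGGGAGA of miR-30c-1-3p). With a single known gene, the detected members Mir5129 and Mir7069 shared the seeds of miR-455-5p (AUGUGCC) and miR-18a-3p (CUGCCCU). The arms below, all from that run, carry the seeds of miR-130/301, miR-15/16, miR-125 and miR-17, with a known arm of the family after each.
mmu-miR-6389: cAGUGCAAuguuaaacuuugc
mmu-miR-130a-3p: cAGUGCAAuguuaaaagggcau
mmu-miR-6353: uAGCAGCAcguauuuauccuauu
mmu-miR-16-5p: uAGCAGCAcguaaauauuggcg
mmu-miR-6367: uCCCUGAGacccugguucagga
mmu-miR-125b-5p: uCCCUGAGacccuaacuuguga
mmu-miR-6383: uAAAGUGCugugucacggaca
mmu-miR-106b-5p: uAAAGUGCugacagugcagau

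The likeness ran past the seed: counted from the 5′ end, the first 15 letters of miR-6389 equal those of miR-130a-3p, the first 12 of miR-6353 those of miR-16-5p, the first 13 of miR-6367 those of miR-125b-5p and the first 10 of miR-6383 those of miR-106b-5p. Mir6341, Mir6342, Mir6353, Mir6367, Mir6383, Mir6389, Mir6394 and Mir6419 had 0 counts in both libraries, like most genes of their run. A count of 0 allows up to 0.710 CPM in replicate 1 and 0.581 CPM in replicate 2. The known genes with these seeds summed to 796 and 1071 CPM for AGUGCAA (5 genes), 3274 and 2972 for AGCAGCA (8 genes), 13521 and 7831 for CCCUGAG (4 genes) and 2184 and 2474 for AAAGUGC (6 genes). Mir6369, Mir6410, Mir6413 and Mir5124b, with the seed GGCUCAG of Mir24-1 and Mir24-2, were also at 0. The tables give 1 count per hairpin, so which arm a count came from, or whether it was a mature arm at all, cannot be told from them.

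Some arms occur in more than one annotated transcript. An arm of 14 members lay whole in a transcript of another gene elsewhere. Of these, 1 had a count (Mir7065, 5 counts) and 0 were detected. In 7 further members only the first 18 bases of an arm lay in such a transcript: 5 had a count and 1 was detected, and Mir6940 had 20 counts and Mir7028 had 12. The paired loci Mir8099-1 and Mir8099-2, Mir7094-1 and Mir7094-2, and Mir7676-1 and Mir7676-2 had 0 counts. Of Mir5615-1 and Mir5615-2, which lie opposite each other, the first had 1 count and the second 0. The tables list 40.4% and 39.4% of reads in a row for multimapping that names no gene, so these reads entered no gene's count. The sources used here do not say by what settings reads were put there. A count of 0 for a gene whose arm occurs at several loci therefore need not mean that the arm was absent. The arms of 79 members lay in an exon of another gene at their own locus, 6 of them detected (Mir7080, Mir8112, Mir7044, Mir6516, Mir8114 and Mir7019), and fragments of those transcripts could count for the hairpin.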

How the data were processed

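Small RNA from left cortex was measured in 2 libraries. The authors deposited a table of raw counts per miRNA gene for each, with columns for either strand, the gene's strand and the opposite strand, on mm10 with GENCODE release M21 per the labels and the records accompanying the files; the sources used here name no aligner or settings. The gene's-strand column was used throughout. Its first 4 rows name no gene and hold 67.4% and 67.6% of reads; they entered no total.

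Members and lists were chosen with earlier results of these data known. One gene in this number range, and the values of 1 member that the naming rule picks, are not reported here. The CPM denominator was the sum over all miRNA genes. Position was taken from the midpoint of the hairpin in GENCODE basic transcripts. With 1 group of 2 libraries no quasi-likelihood fit was possible, so libraries were compared by a two-sided exact binomial test (scipy 1.17.1) with TMM scaling (edgeR 4.0.16 in R 4.3.3) for genes with at least 10 summed counts, Benjamini-Hochberg adjusted, at a threshold of 0.05. The log2 ratio used 0.5 added counts, so it understates ratios of low genes. The code was tested on simulated data. Genes named: the 20 highest members detected; of called members with 20 or more counts, the 5 largest ratios each way; the 3 members with the most opposite-strand counts; members sharing a seed with a detected member. Genes in other seed families and at the edge of the number rule were chosen after their values were seen.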

Additional observations from a re-analysis of the deposited data

Results flagged for a closer look

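Counts on the strand opposite to a gene lie outside every comparison above. Over all members they came to 45 in replicate 1 and 55 in replicate 2, in 15 members, above the 3 counts that a count of 0 allows. Mir5620 had 21 and 22 opposite-strand counts beside 46 and 39 on its own strand. Mir7654, in the coding sequence of Arglu1, had 11 and 16 opposite beside 5 and 0. Mir7013 in Pi4kb had 5 opposite-strand counts in replicate 2 and 0 in replicate 1, beside 23 and 27. Mir8105 had 6 opposite-strand counts in replicate 1, 0 in replicate 2, and none on its own strand.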

How the results depend on the processing

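No paired analysis was possible because the libraries form 1 group. Members detected numbered 104 at 1 CPM, 2 at 100 CPM and 263 at any count. Their share of counts was 0.190% in the column for either strand, 0.0571% of all reads and, added after seeing the data, 0.119% without Mir7689. Members called were 11 of 25 when only genes with 100 counts or more were tested (all genes 79.1%). With the assumed BCV they were 22 of 144 (all genes 28.8%). With each library left out in turn, 25 to 26 members were detected and the share was 0.173% to 0.179%. Called members were 42 of 144 with DESeq2 size factors (22 higher in replicate 2, 20 in replicate 1, main 21 and 27, all genes 57.3%). With total counts they were 42 of 144 (21 and 21, all genes 58.1%). TMM factors from all miRNA genes, added after seeing the data, also gave 42 of 144 (21 and 21, all genes 57.3%). In the column for either strand 44 of 146 were called (all genes 56.0%). Of the named members' ratios 68 held under the alternatives and 8 lost the threshold, 7 of these with the assumed BCV and 1 with DESeq2 size factors. Of the level values 95 held, and 10 moved by more than 1 SD in the column for either strand. Of these, Mir5620, Mir7654 and Mir8105 had opposite-strand counts. Mir7080, Mir5099, Mir7066, Mir7052, Mir7019, Mir6954 and Mir7666 had the same counts in both columns. Their CPM rose only because the total over miRNA genes was smaller in that column. Mir7080 went from 121 to 130 CPM, with an SD of 0.356. The same total enters the members' share of 0.190%. With 2 libraries, a level under about 1 CPM rests on few counts.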
